A study of Homo sapiens with 12 samples.

Results

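The 3 mRNA sequencing libraries labelled A498-Su were compared with the 3 libraries of 786-O, which makes 6 of the 12 libraries of the study. The libraries were taken by their labels, and 786-O was set as their reference because they resembled it in earlier results of these data, so the likeness values below describe that choice and do not test it. Both names stand for human clear cell renal cell carcinoma (ccRCC) lines: 786-O is a parental line used as bought from a cell bank, and A498-Su is the label of a line selected from A498, a second parental line, for growth under sunitinib. Sunitinib is a multikinase inhibitor whose targets include the receptors for vascular endothelial growth factor and platelet-derived growth factor. A498 itself and the sunitinib-resistant derivative of 786-O, called resistant 786-O here, were sequenced as well, with 3 libraries in each of the 4 groups. A498-Su was held at 2 µM and resistant 786-O at 4 µM sunitinib for 4 months or more than 20 passages, whereas 786-O and A498 received no drug. The labels give the treatment of every library as none, while each title carries the code veh, which they do not explain, so it is not known whether drug was present when RNA was taken. Each resistant line came from a single selection, which makes it 1 line and not a set of independent derivatives. Separate cultures for the 3 libraries of a group are not stated, so p-values measure only the spread between these libraries, which may be technical. Each group also carries a batch label of its own, and batch and line cannot be told apart.

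The identity behind the A498-Su label is in doubt, and this bears on every value that follows. The parental lines were more than 4-fold apart at 1207 genes, and of these 957, 950 and 947 were nearer to 786-O than to A498 in the 3 A498-Su libraries (79.3, 78.7 and 78.5%). On a scale that puts 786-O at 0 and A498 at 1 for each of these genes, the median place was 0.14 for A498-Su and 0.15 for resistant 786-O. Over 11129 genes, the median absolute log2 difference of the A498-Su libraries was 0.225 to 0.233 from resistant 786-O, 0.351 to 0.370 from 786-O and 0.473 to 0.480 from A498. Of 66 genes with at most 3 counts over all of 786-O but at least 5 CPM (counts scaled to a common library total after TMM normalization) in A498, with a median of 11.1 CPM there, 0 reached 5 CPM in A498-Su and 61 stayed under 1 CPM. Of 48 genes silent in A498 but at 5 CPM or more in 786-O, 39 reached 5 CPM in A498-Su. The gene for the oxygen-regulated factor HIF-1α, which 786-O is known to lack as a working protein, stood at 11.1, 11.2 and 10.03 CPM in 786-O, at 8.87, 8.42 and 9.08 CPM in A498-Su and at a mean of 9.19 ± 0.606 CPM (SD, n = 3) in resistant 786-O, against 305 ± 11.2 CPM in A498. The A498-Su libraries resembled 786-O and its derivative more than their labelled parent by these measures. 786-O serves as the reference here, and "A498-Su" names the libraries so labelled and makes no statement on their origin.

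**Figure D1:**
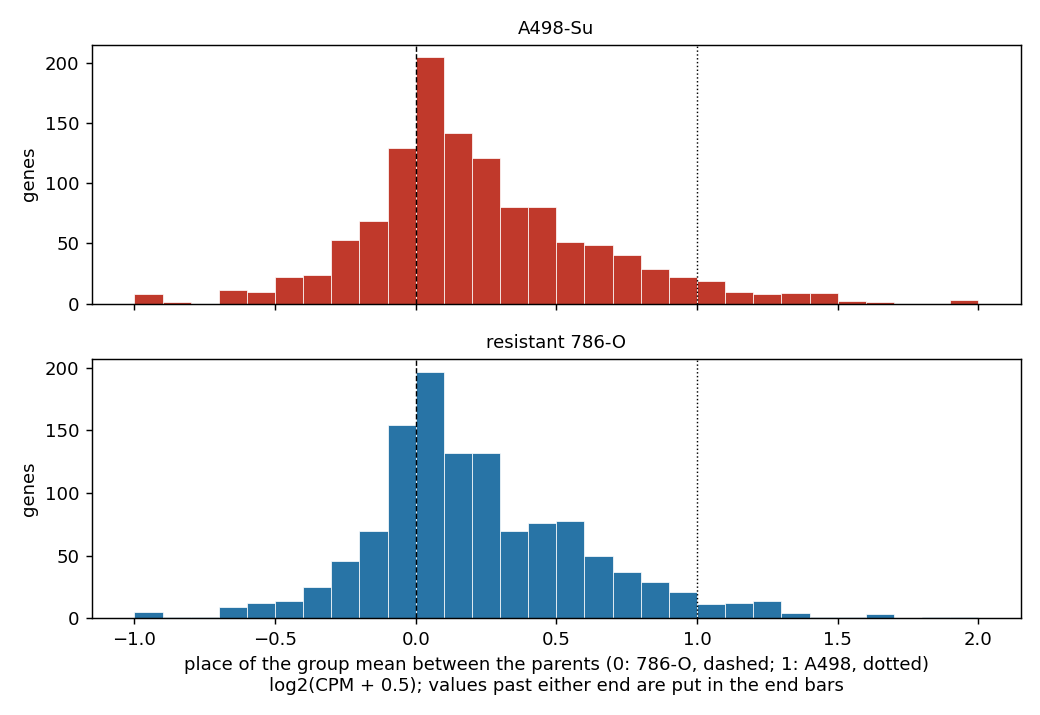
Histograms of the place of each group mean between the parental lines, on log2(CPM + 0.5), for the 1207 genes over 4-fold apart between 786-O (0, dashed) and A498 (1, dotted), with the number of genes on the vertical axis. Both the libraries labelled A498-Su and those of resistant 786-O pile up near 786-O, with medians of 0.14 and 0.15.

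The A498-Su libraries held 20042519 to 25831163 counts each, and those of 786-O held 40845091 to 47972092, so the A498-Su values carry more counting error. Replicates were close, with a median coefficient of variation of 3.14% in A498-Su and 2.62% in 786-O over genes of at least 10 CPM. The second resistant 786-O library stood apart, and the same measure was 7.81% in its group. The mitochondrial share of counts overlapped (1.58 to 1.80% against 1.47 to 1.91%), but genes for ribosomal proteins took 3.23 to 3.34% of the A498-Su counts, below the 4.46 to 4.57% of 786-O. Of the ccRCC markers, the kidney lineage factor PAX8 and vimentin were present in all 6 libraries, while CA9 and NDUFA4L2, which ccRCC tumours usually carry at high levels, were at or near 0 in both groups. The 10 ccRCC markers summed to 4490 to 4640 CPM in A498-Su, less than the 8710 to 9190 CPM of 786-O, a sum dominated by vimentin. T cell RNA was hardly present: CD3D, CD3E and CD3G had 0 counts in every A498-Su library, and all 17 T cell markers together summed to 0.665 to 0.909 CPM there and 0.388 to 0.5 CPM in 786-O. The 7 endothelial markers summed to 0.704 to 1.05 CPM and 0.466 to 0.577 CPM.

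As background, cells that sense viral or misplaced nucleic acid, or that bind interferon, activate transcription factors, STAT2 and IRF9 among them, which bind a short DNA element, the interferon-stimulated response element (ISRE), and switch on a set of antiviral genes along with the machinery that shows peptides on MHC class I. Cells short of cholesterol release SREBP factors from the endoplasmic reticulum, which raise the enzymes of sterol and fatty acid synthesis. Sunitinib is a weak base that gathers in lysosomes, and ccRCC lines without working VHL protein keep HIF-driven genes on at normal oxygen. Genes of these systems are described below in that order.

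The difference from 786-O was broad. Of 19929 genes tested, 12683 (63.6%) differed at an adjusted p under 0.05, 6292 (31.6%) higher and 6391 (32.1%) lower in A498-Su. Beyond 2-fold, 2728 genes (13.7%) were higher and 1255 (6.3%) lower, which makes 20.0% of those tested. The libraries of the groups did not overlap for 73.4% of genes, so separate libraries were common. The quasi-likelihood test of edgeR was used, with Benjamini-Hochberg adjustment over all genes tested, on TMM-normalized counts, and TMM assumes that most genes hold their level. With scaling by library size alone, the median of all genes moved up by 0.151 on the log2 scale and the split became 7923 higher and 4743 lower (62.6% of calls higher, against 49.6%). All changes below are relative to the TMM baseline, on which the median gene moved by 0.003. With so many genes past the threshold, a list of genes was read against 31.6% called higher, 32.1% called lower and the 2-fold shares above.

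**Figure D2:**
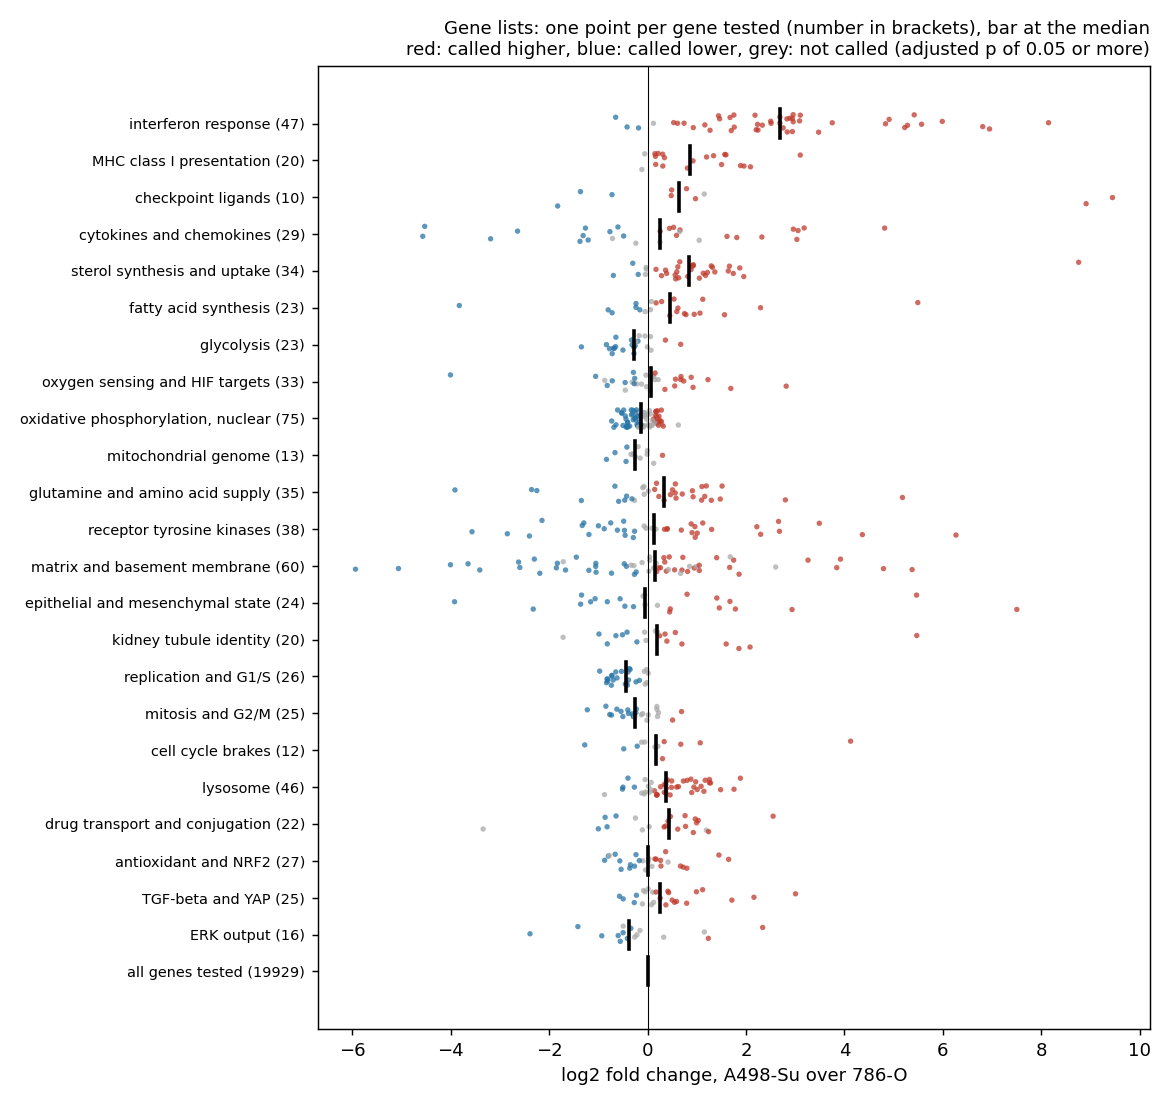
Log2 fold change of A498-Su over 786-O for each tested gene of 23 gene lists (red, called higher; blue, called lower; grey, not called), with a bar at each list's median and the number of tested genes in brackets. The interferon response list lies furthest to the right, with a median of 2.69, and the replication list furthest to the left, with a median of -0.44.

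The interferon response list stood furthest from 786-O. Of its 47 tested genes, 43 were higher and 3 lower in A498-Su, 39 were more than 2-fold higher and the median log2 fold change was 2.69. All 28 antiviral effectors were higher, 26 of them by more than 2-fold, as were all 4 genes of the ISG15 ubiquitin-like modifier system and all 5 transcription factors. One of those factors, IRF9, was at only 0.969, 1.005 and 0.978 CPM in A498-Su and 0.316, 0.466 and 0.288 CPM in 786-O, and whether the strand setting used in counting lowered these values was not tested. In bulk RNA of this kind, more cells with an active response and more RNA per cell cannot be told apart. Among sensors of foreign RNA, RIGI was at 101, 100.5 and 93.2 CPM in A498-Su and 17.3, 17.02 and 17.4 CPM in 786-O. IFIH1, which encodes the sensor MDA5, was at 137, 144 and 133 CPM in A498-Su and 15.4, 16.6 and 16.2 CPM in 786-O. All 3 A498-Su libraries lay far above all 3 of 786-O for both genes, and the log2 fold changes were 2.51 ± 0.07 (SE, edgeR adjusted p = 5.8e-13) for RIGI and 3.10 ± 0.06 (SE, edgeR adjusted p = 2e-14) for IFIH1. The DNA sensor gene CGAS went the other way, with a log2 fold change of -0.42 ± 0.06 (SE, edgeR adjusted p = 2.8e-05). The receptor genes for interferon moved little, with a log2 fold change of -0.18 for IFNAR1, -0.65 for IFNAR2 and 0.61 for IFNGR2, all past the threshold, and 0.12 for IFNGR1, which did not pass (edgeR adjusted p = 0.096).

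STAT2, a factor that carries the interferon signal to the nucleus, was at 159.6, 173 and 164 CPM in A498-Su and 33.03, 32.7 and 32.8 CPM in 786-O. IRF7, which amplifies interferon production, was at 40.4, 45.5 and 43.8 CPM in A498-Su and 4.37, 3.62 and 3.68 CPM in 786-O. Neither pair of ranges overlapped, and the log2 fold changes were 2.33 ± 0.11 (SE, edgeR adjusted p = 1.1e-10) for STAT2 and 3.47 ± 0.09 (SE, edgeR adjusted p = 2.5e-13) for IRF7. STAT2 and IRF7 were also higher in A498-Su than in resistant 786-O, by 0.52 and 0.37 on the log2 scale, each past the threshold.

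Several effectors went from close to silent to well expressed. OAS2, an enzyme that makes the signal for viral RNA decay, was at 305, 324 and 291 CPM in A498-Su and 2.84, 2.33 and 2.31 CPM in 786-O. MX2, a GTPase that restricts viruses at the nuclear pore, was at 76.4, 81.7 and 74.8 CPM in A498-Su and 0.842, 0.388 and 0.821 CPM in 786-O. Each A498-Su library was far above every 786-O library for both genes, with log2 fold changes of 6.95 ± 0.13 (SE, edgeR adjusted p = 8.1e-15) and 6.81 ± 0.18 (SE, edgeR adjusted p = 2.7e-13). IFITM1, a membrane protein that blocks viral entry, was at 43.1, 52.2 and 47.1 CPM in A498-Su and 0.132, 0.129 and 0.222 CPM in 786-O, which gave a log2 fold change of 8.14 ± 0.36 (SE, edgeR adjusted p = 7.3e-11). IFITM1 shares close sequence with IFITM2 and IFITM3, and reads may have been divided among the 3. CMPK2, a mitochondrial nucleotide kinase next to RSAD2, was at 88.5, 89.8 and 84.9 CPM in A498-Su and 1.55, 1.22 and 1.38 CPM in 786-O, with a log2 fold change of 5.99 ± 0.09 (SE, edgeR adjusted p = 1.1e-15). IFI6, an interferon-induced mitochondrial protein, was at 702, 748 and 723 CPM in A498-Su and 20.5, 18.9 and 18.8 CPM in 786-O, and the groups were apart by 5.22 ± 0.17 (SE, edgeR adjusted p = 3.2e-12). ISG15, the ubiquitin-like tag itself, was at 538, 560.4 and 522 CPM in A498-Su and 76.3, 67.04 and 67.7 CPM in 786-O, a log2 difference of 2.94 ± 0.21 (SE, edgeR adjusted p = 1.3e-08). Among the less changed effectors, BST2 (tetherin) and IFITM2 were the 2 under 2-fold, at 0.74 and 0.93 on the log2 scale.

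The ISRE core was common in promoters of the interferon list. The core GAAANNGAAA was searched on both strands in the RefSeq promoter windows, 250 bases before to 50 after each start (GRCh38.p14), where N is any base and matches may share bases with a neighbouring match. It was in 1195 of 27305 promoters in all (4.38%), in 506 of 12603 tested genes with a promoter entry (4.01%) and in 20 of the 35 interferon genes with one (57.1%). Effectors held it in 16 of 23 (69.6%), whereas the transcription factors and the receptors held it in 0 of 3 each. These windows, printed on the gene's strand from 5′ to 3′, are shown as examples of interferon list genes more than 2-fold above 786-O that hold the core, and capitals mark 1 core on either strand in each.
IFI6 (chr1:27672268-27672337, minus strand): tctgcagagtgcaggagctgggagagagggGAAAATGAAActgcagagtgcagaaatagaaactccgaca
ISG15 (chr1:1013360-1013429, plus strand): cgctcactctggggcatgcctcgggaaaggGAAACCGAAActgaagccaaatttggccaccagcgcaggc
IFIT1 (chr10:89392477-89392546, plus strand): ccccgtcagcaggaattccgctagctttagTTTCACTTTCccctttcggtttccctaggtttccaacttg
RSAD2 (chr2:6877602-6877671, plus strand): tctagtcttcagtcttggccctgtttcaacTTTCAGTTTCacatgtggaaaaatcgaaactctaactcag
IFITM1 (chr11:313970-314039, plus strand): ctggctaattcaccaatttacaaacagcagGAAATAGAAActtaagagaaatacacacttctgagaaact
MX1 (chr21:41431824-41431893, plus strand): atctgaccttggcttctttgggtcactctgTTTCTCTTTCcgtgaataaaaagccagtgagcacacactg
EPSTI1 (chr13:42992252-42992321, minus strand): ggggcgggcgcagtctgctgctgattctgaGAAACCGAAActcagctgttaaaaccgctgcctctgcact
In these windows the first base of the core lay between 40 bases (IFITM1) and 196 bases (MX1) before the RefSeq start. IFI6, ISG15 and IFIT1 each had further cores nearby, which stand in lower case where they fall in a printed window, and in ISG15 neighbouring cores shared 4 bases. The log2 fold changes of the genes so far without values were 5.42 for RSAD2 (viperin), 5.57 for EPSTI1, 3.75 for MX1 and 2.89 for IFIT1, all past the threshold. A match describes letters and does not show that a factor was bound.

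The peptide display machinery of MHC class I was higher as well. Of 20 tested genes, 18 were higher and 0 lower, with 9 beyond 2-fold and a median of 0.87. All 6 genes for the heavy and light chains were more than 2-fold higher. B2M, the light chain shared by all class I molecules, was at 3205, 3170 and 3055 CPM in A498-Su and 825, 793 and 808 CPM in 786-O. HLA-B, a classical heavy chain, was at 1826, 1782 and 1774 CPM in A498-Su and 438, 404 and 421 CPM in 786-O. HLA-F, a non-classical one, was at 85.8, 86.6 and 85.5 CPM in A498-Su and 9.84, 10.2 and 9.96 CPM in 786-O. The groups were fully separate for all 3 genes, at 1.96 ± 0.06 (SE, edgeR adjusted p = 1.8e-12), 2.09 ± 0.05 (SE, edgeR adjusted p = 9.9e-14) and 3.10 ± 0.06 (SE, edgeR adjusted p = 8.1e-15). Heavy chain genes are near-identical and their alleles differ between lines, so reads may be split among them. NLRC5, the transactivator of this set, was at 64.2, 70.6 and 65.7 CPM in A498-Su and 16.4, 19.1 and 18.6 CPM in 786-O, with a log2 fold change of 1.89 ± 0.07 (SE, edgeR adjusted p = 8e-12). TAP1, the peptide transporter subunit, and PSMB9, an immunoproteasome subunit, had log2 fold changes of 1.59 and 1.503, both past the threshold, while PSMB10 (-0.12, edgeR adjusted p = 0.42) and TAPBPL (-0.06, edgeR adjusted p = 0.63) did not pass. Against resistant 786-O the chain genes HLA-B, HLA-C and HLA-F were lower in A498-Su, with log2 differences of -0.28, -0.51 and -0.89, and B2M was higher by 0.31.

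**Figure D3:**
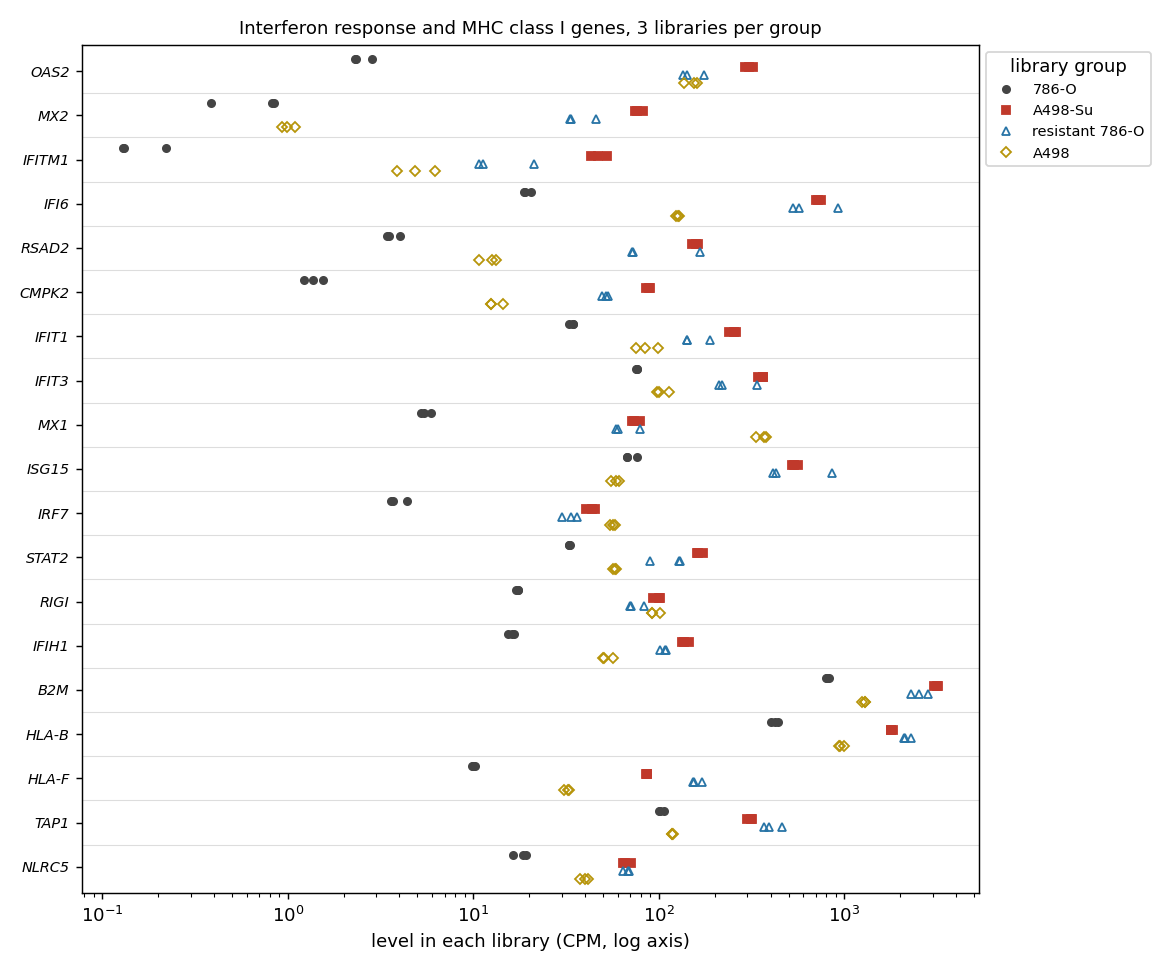
CPM of interferon response and MHC class I genes in every library, on a log axis, with a symbol and colour for each of the 4 groups and 3 libraries in each. For all 19 genes the A498-Su points lie to the right of the 786-O points, as for OAS2 at 291 to 324 CPM against 2.31 to 2.84 CPM.

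Ligands that regulate T cells did not move as a set: of 10 tested, 6 were higher and 3 lower, with a median of 0.64. CD274, which encodes PD-L1, was lower in A498-Su, at 9.02, 8.52 and 9.27 CPM in A498-Su and 13.99, 15.6 and 14.7 CPM in 786-O, with a log2 fold change of -0.72 ± 0.20 (SE, edgeR adjusted p = 0.0063). Its paralog PDCD1LG2 (PD-L2) was at 3.50, 3.21 and 2.82 CPM in A498-Su and 8.49, 8.51 and 7.54 CPM in 786-O, with a log2 fold change of -1.36 ± 0.38 (SE, edgeR adjusted p = 0.0054). In both cases the highest A498-Su library was below the lowest 786-O library. VTCN1 (B7-H4) had 161, 122 and 132 counts in A498-Su and 0, 0 and 1 counts in 786-O, a ratio of group CPM of 690 with an exact 95% Poisson interval from 123 to 27300 that covers counting error only. LGALS9, the gene of galectin-9, had 949, 819 and 915 counts in A498-Su and 0, 0 and 6 counts in 786-O, with a log2 fold change of 9.44 ± 0.42 (SE, edgeR adjusted p = 7.7e-11), but its near-identical copies LGALS9B and LGALS9C make its counts uncertain. The other 4 that were higher moved by less than 2-fold: CD276 (B7-H3) by 0.79, NECTIN2 by 0.97, PVR by 0.49 and CD47, which signals to macrophages, by 0.48 on the log2 scale.

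Secreted cytokines and chemokines were split. Of 29 tested, 13 were higher and 11 lower, 8 beyond 2-fold in each direction. The higher ones included chemokines that interferon is known to induce: CCL5, which attracts T cells, was at 47.6, 46.9 and 44.4 CPM in A498-Su and 1.26, 1.86 and 1.77 CPM in 786-O, with a log2 fold change of 4.82 ± 0.34 (SE, edgeR adjusted p = 1.1e-08), and CXCL16 was at 6.19, 7.51 and 6.18 CPM in A498-Su and 0.947, 0.672 and 0.577 CPM in 786-O, with a log2 fold change of 3.18 ± 0.20 (SE, edgeR adjusted p = 3e-09). CXCL10 and CXCL11 were also higher (2.96 and 3.03) but stayed under 5 CPM. GDF15, a stress cytokine, was at 172, 200.5 and 199.7 CPM in A498-Su and 41.7, 36.1 and 36.8 CPM in 786-O. All of these were separate between the groups. The lower ones included the neutrophil-attracting chemokines. CXCL8 (interleukin 8) was at 5.67, 5.55 and 4.07 CPM in A498-Su and 48.0, 46.1 and 45.0 CPM in 786-O, with a log2 fold change of -3.19 ± 0.11 (SE, edgeR adjusted p = 5.1e-12). CXCL1 was at 0.447, 0.383 and 0.313 CPM in A498-Su and 8.97, 8.72 and 8.96 CPM in 786-O, with a log2 fold change of -4.53 ± 0.18 (SE, edgeR adjusted p = 2.4e-11). CXCL5 was at 16.9, 17.1 and 15.3 CPM in A498-Su and 100.2, 104 and 104 CPM in 786-O, with a log2 fold change of -2.64 ± 0.13 (SE, edgeR adjusted p = 1.6e-10). Each A498-Su value was several-fold below every 786-O value. CSF2, the gene of the growth factor GM-CSF, was at 1.23, 0.909 and 0.782 CPM in A498-Su and 23.5, 23.6 and 22.8 CPM in 786-O, with a log2 fold change of -4.57 ± 0.31 (SE, edgeR adjusted p = 8.2e-09), and IL6 was at 14.02, 14.9 and 11.9 CPM in A498-Su and 31.4, 31.3 and 31.4 CPM in 786-O, with a log2 fold change of -1.21 ± 0.09 (SE, edgeR adjusted p = 2.3e-08). The CXCR2 ligand genes CXCL2 and CXCL3 were low in both groups and also lower in A498-Su (-1.26 and -0.60).

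Genes of cholesterol synthesis and uptake were higher in A498-Su. Of 34 tested, 28 were higher and 3 lower, 13 beyond 2-fold up and 0 down, with a median of 0.85. Among the 20 enzymes of the synthesis path, 19 were higher and only PMVK was lower (-0.69). HMGCS1, which makes HMG-CoA, was at 493, 512 and 491 CPM in A498-Su and 126, 129 and 130.2 CPM in 786-O. SC5D, a late enzyme, was at 136, 138 and 134 CPM in A498-Su and 38.9, 41.1 and 41.7 CPM in 786-O. Both genes were separate between the groups, at 1.95 ± 0.05 (SE, edgeR adjusted p = 2.7e-13) and 1.74 ± 0.07 (SE, edgeR adjusted p = 1.7e-11). The 5 genes for uptake and intracellular cholesterol transport were higher without exception. NPC2, which carries cholesterol out of lysosomes, was at 169, 159 and 160.5 CPM in A498-Su and 54.4, 48.7 and 51.3 CPM in 786-O, with a log2 fold change of 1.66 ± 0.05 (SE, edgeR adjusted p = 2.8e-12). The regulators SREBF2, SREBF1 and INSIG1 were higher by 0.82, 1.05 and 0.56, and the sensor gene SCAP was lower (-0.19).

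Fatty acid genes were divided, with 14 of 23 higher and 6 lower (16 and 3 with library size alone) and a median of 0.45. SCD, the main desaturase, was at 1476, 1536 and 1586 CPM in A498-Su and 301, 319 and 317 CPM in 786-O, with a log2 fold change of 2.29 ± 0.09 (SE, edgeR adjusted p = 2.8e-11). FASN, fatty acid synthase, was at 667, 734 and 763 CPM in A498-Su and 404, 436 and 419.6 CPM in 786-O, with a log2 fold change of 0.78 ± 0.10 (SE, edgeR adjusted p = 4.5e-06). Both genes were higher in all 3 A498-Su libraries than in any 786-O library. ACSS2, which activates acetate, and FADS2, a desaturase of polyunsaturated chains, were higher by 1.56 and 1.12. G0S2, an inhibitor of the triglyceride lipase ATGL, was the only one lower by more than 2-fold: it was at 5.63, 6.75 and 6.30 CPM in A498-Su and 90.8, 85.4 and 87.1 CPM in 786-O, with a log2 fold change of -3.82 ± 0.17 (SE, edgeR adjusted p = 8e-11). PLIN2, the coat of lipid droplets, was higher by 0.75 and HILPDA, another lipase inhibitor, lower (-0.72).

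Lysosomal genes were higher by small to moderate amounts. Of 46 tested, 33 were higher and 4 lower, 10 beyond 2-fold up and 0 down, with a median of 0.38. Of the degradative enzymes, 19 of 21 were higher and 0 lower. NEU1, a sialidase, was at 307, 311 and 306 CPM in A498-Su and 88.1, 80.6 and 81.7 CPM in 786-O. CTSH, the protease cathepsin H, was at 29.4, 28.3 and 27.8 CPM in A498-Su and 8.57, 9.08 and 7.70 CPM in 786-O. PSAP, the precursor of saposins that help break down sphingolipids, was at 3126, 3149 and 3110 CPM in A498-Su and 1332, 1289 and 1307 CPM in 786-O. Each was separate between the groups, at 1.89 ± 0.05 (SE, edgeR adjusted p = 1.3e-13), 1.76 ± 0.09 (SE, edgeR adjusted p = 5.1e-10) and 1.26 ± 0.04 (SE, edgeR adjusted p = 1.6e-12). GAA, an enzyme whose loss causes a storage disease, was higher by 1.48. The proton pump had 10 of 16 subunits higher, 0 lower and none beyond 2-fold. The 3 genes of the MiT/TFE factors that drive lysosomal genes were all lower, with log2 fold changes of -0.51 for TFE3, -0.40 for TFEB and -0.27 for MITF.

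Of 23 glycolytic genes tested, 15 were lower and 2 higher, and the median was -0.28. With scaling by library size alone, 13 were lower and 5 higher, and the median was -0.126. GAPDH was at 3549, 3364 and 3476 CPM in A498-Su and 5846, 5547 and 5693 CPM in 786-O. TPI1 was at 763, 706 and 757 CPM in A498-Su and 1347, 1307 and 1316 CPM in 786-O. ENO1 was at 2370, 2279 and 2307 CPM in A498-Su and 4046, 3959 and 3890 CPM in 786-O. The highest A498-Su library was below the lowest 786-O library in each case, at -0.72 ± 0.04 (SE, edgeR adjusted p = 1.2e-09), -0.83 ± 0.04 (SE, edgeR adjusted p = 5.1e-10) and -0.77 ± 0.04 (SE, edgeR adjusted p = 1.1e-09). LDHA, which turns pyruvate into lactate, was at 1255, 1183 and 1184 CPM in A498-Su and 1726, 1708 and 1688 CPM in 786-O, with a log2 fold change of -0.50 ± 0.04 (SE, edgeR adjusted p = 6.6e-08), and the lactate exporter gene SLC16A3 was lower (-0.67). The 2 that were higher were the glucose transporter gene SLC2A3 (0.67) and the enolase gene ENO2 (0.36). Only ALDOC, at 1.19 and 3.05 CPM, was beyond 2-fold.

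HIF-linked genes showed no common direction, with 12 of 33 higher, 8 lower and a median of 0.07, and with library size alone 17 were higher and 6 lower. EPAS1, the gene of HIF-2α, the HIF form that 786-O does make, was at 229, 231 and 249 CPM in A498-Su and 156, 165 and 163 CPM in 786-O, with a log2 fold change of 0.55 ± 0.09 (SE, edgeR adjusted p = 5e-05). NDRG1, a stress-response target, was at 683, 742 and 763 CPM in A498-Su and 230.3, 224 and 223 CPM in 786-O, with a log2 fold change of 1.69 ± 0.12 (SE, edgeR adjusted p = 7.6e-09). LOX, a collagen crosslinking enzyme, was at 0.671, 0.622 and 0.587 CPM in A498-Su and 9.97, 10.6 and 9.78 CPM in 786-O, with a log2 fold change of -4.003 ± 0.21 (SE, edgeR adjusted p = 5.6e-10). NDRG1 was thus higher and LOX lower in every A498-Su library. VEGFA, the growth factor that starts the signal sunitinib blocks, was at 172, 180.4 and 181 CPM in A498-Su and 245, 245 and 241 CPM in 786-O, with a log2 fold change of -0.46 ± 0.06 (SE, edgeR adjusted p = 3.9e-06). VHL itself, CA12 and ADM did not pass the test.

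Nuclear genes of oxidative phosphorylation moved by small amounts, 36 of 75 lower and 15 higher, with 0 beyond 2-fold and a median of -0.13. With scaling by library size alone the median became 0.0251, so no direction is given for the list. By complex, with no test between them, complex I had 18 of 36 lower and 4 higher, complex V 10 of 15 lower and 1 higher, and complex IV 7 of 11 higher and 1 lower. NDUFB10 of complex I was the furthest, at 45.0, 51.9 and 47.0 CPM in A498-Su and 82.5, 78.9 and 76.5 CPM in 786-O, with a log2 fold change of -0.73 ± 0.05 (SE, edgeR adjusted p = 2.1e-08). COX7B of complex IV had a log2 fold change of 0.32. Of the 13 protein genes of the mitochondrial genome, 4 were lower and 1 higher, close to the 32.1% of all genes called lower, and with library size alone 2 were lower. MT-ND6 was furthest, at 194, 207 and 236 CPM in A498-Su and 376, 438 and 323 CPM in 786-O, with a log2 fold change of -0.83 ± 0.14 (SE, edgeR adjusted p = 9.6e-05). MT-ND1 was at 418, 454 and 469.8 CPM in A498-Su and 712, 798 and 612 CPM in 786-O, with a log2 fold change of -0.66 ± 0.12 (SE, edgeR adjusted p = 0.00022). Their A498-Su libraries were lower than all 786-O libraries although the total mitochondrial share overlapped between the groups.

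Amino acid supply genes were more often higher (21 of 35, with 9 lower, median 0.34). SLC1A5, the glutamine transporter, was at 549, 564 and 564 CPM in A498-Su and 390, 375 and 372 CPM in 786-O, with a log2 fold change of 0.56 ± 0.05 (SE, edgeR adjusted p = 1.4e-07). PSAT1, an enzyme of serine synthesis, was at 509, 471 and 487 CPM in A498-Su and 228, 228 and 228 CPM in 786-O, with a log2 fold change of 1.10 ± 0.07 (SE, edgeR adjusted p = 2.6e-09). Both sets of libraries were apart. CHAC1 and DDIT3, targets of the amino acid stress factor ATF4, were higher by 1.51 and 1.10, while ATF4 itself did not pass (-0.10, edgeR adjusted p = 0.086). SLC38A5, another glutamine transporter, was close to silent in A498-Su, at 0.410, 0.383 and 0.352 CPM in A498-Su and 6.21, 6.001 and 5.21 CPM in 786-O, with a log2 fold change of -3.91 ± 0.20 (SE, edgeR adjusted p = 4.3e-10), and ASS1 of arginine synthesis was lower (-2.36).

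Receptor tyrosine kinase genes were split, 18 of 38 higher and 16 lower, and by role, with no test between them, 11 of 17 receptors outside the sunitinib targets and the TAM family (TYRO3, AXL and MERTK) were higher and 4 lower, while 11 of 14 ligand genes were lower and 2 higher. Only 2 genes of sunitinib targets had enough counts to test, PDGFRB and CSF1R, and CSF1R was lower (-2.85, from a mean of 1.90 CPM in 786-O). PDGFRB, the platelet-derived growth factor receptor β, was at 5.41, 5.12 and 5.95 CPM in A498-Su and 0.368, 0.259 and 0.177 CPM in 786-O, with a log2 fold change of 4.36 ± 0.33 (SE, edgeR adjusted p = 2.1e-08). FGFR2, a fibroblast growth factor receptor, was at 75.1, 73.7 and 73.6 CPM in A498-Su and 11.99, 11.7 and 11.1 CPM in 786-O, with a log2 fold change of 2.68 ± 0.28 (SE, edgeR adjusted p = 6.8e-07). EGFR was at 541, 559 and 568 CPM in A498-Su and 286, 306 and 310.2 CPM in 786-O, with a log2 fold change of 0.89 ± 0.07 (SE, edgeR adjusted p = 6.3e-08). Every A498-Su library exceeded every 786-O library for these 3. MET, the receptor for hepatocyte growth factor, was lower, at 451, 422 and 427 CPM in A498-Su and 778, 806 and 809 CPM in 786-O, with a log2 fold change of -0.88 ± 0.05 (SE, edgeR adjusted p = 3.7e-10). EREG, an EGFR ligand, was at 49.8, 48.0 and 46.0 CPM in A498-Su and 255, 251 and 253 CPM in 786-O, with a log2 fold change of -2.40 ± 0.08 (SE, edgeR adjusted p = 1.8e-12).

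The study followed AXL, PD-L1, STAT3, ERK1, AKT, HSP27, AMPK and LDHA as proteins, and the libraries hold their mRNA. The immunoblots set A498-Su beside A498, whereas 786-O is the reference here. Over A498, the log2 fold changes of STAT3 and MAPK3 were -0.54 and -1.20, opposite to those below. CD274 did not pass there (0.14, edgeR adjusted p = 0.57). AXL (1.73), PRKAA2 (0.94), HSPB1 (-0.89) and LDHA (-0.16) kept the direction they had against 786-O, and PRKAA1 (0.77) and AKT1 (0.21) were called higher. AXL was at 754, 738 and 735 CPM in A498-Su and 563, 563 and 565 CPM in 786-O, with a log2 fold change of 0.40 ± 0.09 (SE, edgeR adjusted p = 0.0011). PROS1, the gene of protein S, a ligand of the TAM family, was at 81.0, 80.2 and 77.8 CPM in A498-Su and 16.4, 16.0 and 16.3 CPM in 786-O, with a log2 fold change of 2.30 ± 0.07 (SE, edgeR adjusted p = 5.8e-13). Both were higher in every A498-Su library, AXL by less than 2-fold. MERTK and TYRO3 were higher by 1.30 and 0.40, and the AXL ligand gene GAS6 did not pass (0.09, edgeR adjusted p = 0.18). STAT3 was at 166, 169.6 and 168 CPM in A498-Su and 114, 112 and 113 CPM in 786-O, with a log2 fold change of 0.57 ± 0.05 (SE, edgeR adjusted p = 5.7e-08). MAPK3 (ERK1) was higher (0.23 ± 0.05 (SE, edgeR adjusted p = 0.0014)), by less than 2-fold. HSPB1, the gene of HSP27, was at 793, 908 and 879 CPM in A498-Su and 1322, 1214 and 1202 CPM in 786-O, with a log2 fold change of -0.54 ± 0.07 (SE, edgeR adjusted p = 5.1e-06). Of the AMPK catalytic subunits, PRKAA2 was at 16.9, 16.2 and 16.4 CPM in A498-Su and 6.81, 6.03 and 7.99 CPM in 786-O, with a log2 fold change of 1.24 ± 0.12 (SE, edgeR adjusted p = 3.1e-07), and PRKAA1 had a log2 fold change of 0.11 ± 0.05 (SE, edgeR adjusted p = 0.1). AKT1, at 147, 144 and 149 CPM in A498-Su and 151, 148 and 148 CPM in 786-O, overlapped between the groups (-0.02 ± 0.05 (SE, edgeR adjusted p = 0.72)). The calls on PRKAA1 and AKT1 depended on the processing. AKT1 was called higher with library size alone (0.1314, edgeR adjusted p = 0.023) and lower with the trend in GC content and length removed (-0.3107, edgeR adjusted p = 4.5e-06), and PRKAA1 was called higher in both (edgeR adjusted p = 0.0011 and 0.0017).

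Matrix genes were divided, 23 of 60 higher and 22 lower, with 11 and 17 beyond 2-fold. COL6A3, a chain of collagen VI, was at 3.84, 3.40 and 3.05 CPM in A498-Su and 194, 222 and 213 CPM in 786-O, with a log2 fold change of -5.93 ± 0.38 (SE, edgeR adjusted p = 3.5e-09). NID1, a linker of the basement membrane, was at 0.634, 1.05 and 0.978 CPM in A498-Su and 28.9, 30.1 and 28.8 CPM in 786-O, with a log2 fold change of -5.06 ± 0.15 (SE, edgeR adjusted p = 7.2e-13). FN1, fibronectin, was at 2643, 2954 and 2805 CPM in A498-Su and 7048, 8115 and 7742 CPM in 786-O, with a log2 fold change of -1.45 ± 0.12 (SE, edgeR adjusted p = 7.4e-08). For these 3 every A498-Su library was below every 786-O library. In the opposite direction, COL12A1 was at 65.6, 76.1 and 71.1 CPM in A498-Su and 2.02, 2.12 and 3.42 CPM in 786-O, with a log2 fold change of 4.79 ± 0.20 (SE, edgeR adjusted p = 2.8e-11), and COL4A4, a chain of collagen IV in mature basement membrane, was at 5.89, 6.41 and 5.56 CPM in A498-Su and 0.132, 0.207 and 0.0887 CPM in 786-O, with a log2 fold change of 5.37 ± 0.21 (SE, edgeR adjusted p = 1.7e-11). COL4A4 and its partner chains COL4A3 and COL4A5 were higher together, the last 2 by 3.84 and 1.75. Among crosslinkers, LOX, LOXL1, LOXL3 and the transglutaminase gene TGM2 were lower and LOXL2 higher. Of 13 proteases and inhibitors, 7 were lower by more than 2-fold, among them MMP2, MMP14 and the urokinase receptor gene PLAUR (-2.62, -1.19 and -1.67).

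Genes of epithelial and mesenchymal state were divided, 10 of 24 higher and 10 lower. VIM was at 2967, 3120 and 3089 CPM in A498-Su and 7058, 6774 and 6611 CPM in 786-O, with a log2 fold change of -1.16 ± 0.04 (SE, edgeR adjusted p = 8.5e-12). EPCAM was at 0.298, 0.478 and 0.313 CPM in A498-Su and 5.497, 5.46 and 5.35 CPM in 786-O, with a log2 fold change of -3.92 ± 0.20 (SE, edgeR adjusted p = 2.5e-10). CDH1, E-cadherin, had 52, 49 and 55 counts in A498-Su and 0, 1 and 0 counts in 786-O, a ratio of group CPM of 259 with an exact 95% interval from 45.8 to 10300. VIM, a mesenchymal gene, and EPCAM, an epithelial one, were thus both lower, while CDH1 was higher at a low level. Among kidney identity genes, 9 of 20 were higher and 6 lower (11 and 4 with library size alone). PAX8 was lower (-0.64 ± 0.05 (SE, edgeR adjusted p = 3.5e-08)) and DPP4, a brush border peptidase, higher, at 201, 202 and 198 CPM in A498-Su and 65.6, 65.0 and 68.2 CPM in 786-O, with a log2 fold change of 1.597 ± 0.15 (SE, edgeR adjusted p = 2.7e-07).

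Replication genes were lower in A498-Su without exception among those called: 21 of 26 were lower and 0 higher, with a median of -0.44 and none beyond 2-fold. With library size alone 18 were lower, with a median of -0.285. MCM5, a subunit of the replicative helicase, was at 116, 115 and 114 CPM in A498-Su and 214, 199.6 and 200.1 CPM in 786-O. RRM2, which makes deoxynucleotides, was at 315, 300.5 and 294 CPM in A498-Su and 506, 498.2 and 499.6 CPM in 786-O. All 3 libraries of each group were apart, at -0.83 ± 0.07 (SE, edgeR adjusted p = 7.2e-08) and -0.73 ± 0.09 (SE, edgeR adjusted p = 4.4e-06). Of 25 mitotic genes, 14 were lower and 2 higher, with a median of -0.26, but with library size alone 8 were lower and 5 higher, with a median of -0.107. CDC20, an activator of the anaphase-promoting complex, was at 196, 191 and 195 CPM in A498-Su and 469, 451 and 438 CPM in 786-O, with a log2 fold change of -1.22 ± 0.09 (SE, edgeR adjusted p = 2.1e-08). MKI67, the proliferation marker Ki-67, was at 477, 500.3 and 522 CPM in A498-Su and 487, 575 and 573 CPM in 786-O and did not pass (-0.13 ± 0.12 (SE, edgeR adjusted p = 0.37)), and TOP2A was higher (0.51). The replication-dependent histone genes took 0.0936 to 0.0960% of the A498-Su counts and 0.0754 to 0.0773% of those of 786-O. CDK6, a kinase that drives entry into S phase, was at 146, 153 and 151 CPM in A498-Su and 336, 369.6 and 380.5 CPM in 786-O, with a log2 fold change of -1.28 ± 0.05 (SE, edgeR adjusted p = 2.3e-11). Of 8 inhibitors of the cycle, 5 were higher and 0 lower, including CDKN1C (p57) at 4.06, 5.65 and 5.20 CPM in A498-Su and 0.421, 0.310 and 0.133 CPM in 786-O, with a log2 fold change of 4.12 ± 0.35 (SE, edgeR adjusted p = 9.4e-08).

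The remaining lists are described by their counts and a few members. Drug transport and conjugation genes were higher in 13 of 22 cases and lower in 4. ABCG2, an efflux pump that carries sunitinib, had a log2 fold change of 0.97 ± 0.15 (SE, edgeR adjusted p = 4.3e-05) and was at 6.04, 5.89 and 5.95 CPM in A498-Su and 3.31, 2.59 and 3.22 CPM in 786-O, while ABCB1 (P-glycoprotein) did not pass (-0.11, edgeR adjusted p = 0.09). Targets of the antioxidant factor NRF2 were evenly split, 10 of 27 higher and 10 lower with its 2 regulators counted (13 and 6 with library size alone), with PRDX1 among the lower ones (-0.80). In the TGF-beta and YAP list 14 of 25 were higher and 4 lower (18 and 2 with library size alone). SMAD6, an inhibitor of BMP signals, was at 33.3, 31.6 and 35.9 CPM in A498-Su and 10.6, 9.67 and 10.5 CPM in 786-O, with a log2 fold change of 1.71 ± 0.07 (SE, edgeR adjusted p = 2.1e-11), and CCN2, a YAP target, was higher by 1.12. Genes that report ERK activity were lower in 8 of 16 cases and higher in 2: IER3 was at 39.3, 43.1 and 40.8 CPM in A498-Su and 113, 109.8 and 106 CPM in 786-O, with a log2 fold change of -1.42 ± 0.09 (SE, edgeR adjusted p = 2.3e-09), FOSL1 was lower (-0.93), and the immediate early gene EGR1 was higher, at 8.01, 8.71 and 8.29 CPM in A498-Su and 2.0, 1.34 and 1.597 CPM in 786-O, with a log2 fold change of 2.34 ± 0.16 (SE, edgeR adjusted p = 9.4e-09).

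Among single genes, those furthest from 786-O had nearly on and off patterns. CYBRD1 (ENSG00000071967.12, chr2:171522247-171558129), a duodenal iron reductase, had 259, 196 and 235 counts in A498-Su and 0, 0 and 0 counts in 786-O, which makes it at least 382-fold higher when the floor is 3 counts over the group. ENPP5 (ENSG00000112796.10, chr6:46159185-46170980) had 176, 140 and 136 counts in A498-Su and 0, 0 and 0 counts in 786-O, at least 250-fold higher. CPVL (ENSG00000106066.15, chr7:28995235-29195451), a serine carboxypeptidase, had 207, 149 and 178 counts in A498-Su and 0, 1 and 0 counts in 786-O, a ratio of 887 with an exact 95% interval from 159 to 35100. In the 3 genes, 786-O held 1 count in all. RASGRP3 (ENSG00000152689.18, chr2:33436324-33564750), an activator of RAS, was at 25.1, 26.6 and 24.6 CPM in A498-Su and 0.105, 0.284 and 0.155 CPM in 786-O, with a log2 fold change of 7.11 ± 0.22 (SE, edgeR adjusted p = 1.2e-12). DHRS3 (ENSG00000162496.9, chr1:12567910-12618210), which reduces retinal, was at 33.5, 33.5 and 37.6 CPM in A498-Su and 0.395, 0.310 and 0.288 CPM in 786-O, with a log2 fold change of 6.72 ± 0.19 (SE, edgeR adjusted p = 5.1e-13). CERS4, which makes ceramide, and DHRS2 were higher by 6.48 and 6.36. Beside these, the 15 furthest included IFITM1, OAS2, MX2, LGALS9 and VTCN1 from the lists, and OSBPL1A and SCN8A. Levels in A498, the labelled parent, were mixed. OAS2, DHRS3, OSBPL1A, CERS4, SCN8A and CPVL had A498 means of 150.5, 124.6, 17.6, 13.9, 9.85 and 5.00 CPM. IFITM1, RASGRP3, LGALS9 and VTCN1 were at 4.99, 3.88, 3.61 and 1.83 CPM there. MX2, DHRS2, CYBRD1 and ENPP5 were at 1.01, 0.631, 0.0588 and 0 CPM.

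At the other end, B3GALNT1 (ENSG00000169255.15, chr3:161083883-161105411), a glycosyltransferase, had 1, 0 and 1 counts in A498-Su and 979, 983 and 1136 counts in 786-O, a ratio of 932 in favour of 786-O with an exact 95% interval from 258 to 7700. PLEK2 (ENSG00000100558.9, chr14:67386984-67412167), pleckstrin 2, had 1, 1 and 0 counts in A498-Su and 944, 924 and 1077 counts in 786-O, a ratio of 886 (245 to 7320). MALL (ENSG00000144063.4, chr2:110083870-110116022) had 1, 1 and 1 counts in A498-Su and 456, 491 and 524 counts in 786-O, a ratio of 295 (101 to 1430). In A498-Su each of these 3 genes thus had 0 or 1 count per library. ALDH2 (ENSG00000111275.13, chr12:111766887-111817532), mitochondrial aldehyde dehydrogenase, was at 0.596, 0.526 and 0.509 CPM in A498-Su and 50.2, 43.9 and 47.5 CPM in 786-O, with a log2 fold change of -6.43 ± 0.34 (SE, edgeR adjusted p = 5.1e-10). IGFBP4, which binds insulin-like growth factors, was at 0.0746, 0.0478 and 0.0391 CPM in A498-Su and 10.7, 10.1 and 9.21 CPM in 786-O, with a log2 fold change of -7.42 ± 0.35 (SE, edgeR adjusted p = 1.3e-10). ZNF22 and LAYN were lower (-6.16 and -7.66 on the log2 scale). MT1L, also in this group, belongs to the metallothionein family, whose close copies share reads, and P2RY2 overlaps another gene of the group, ENSG00000260401, so their counts are uncertain. The rest of the 15 were PRTFDC1, CYP7B1, GALNT5, DENND2D and COL6A3. Here too A498 levels were mixed. COL6A3, ALDH2, GALNT5, LAYN, CYP7B1 and IGFBP4 had low A498 means of 1.125, 0.444, 0.341, 0.210, 0.0155 and 0.00965 CPM. MALL, PRTFDC1, P2RY2, B3GALNT1, ZNF22, DENND2D and PLEK2 were expressed there, at 23.98, 12.57, 11.63, 10.55, 6.91, 5.225 and 4.60 CPM.

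**Figure D4:**
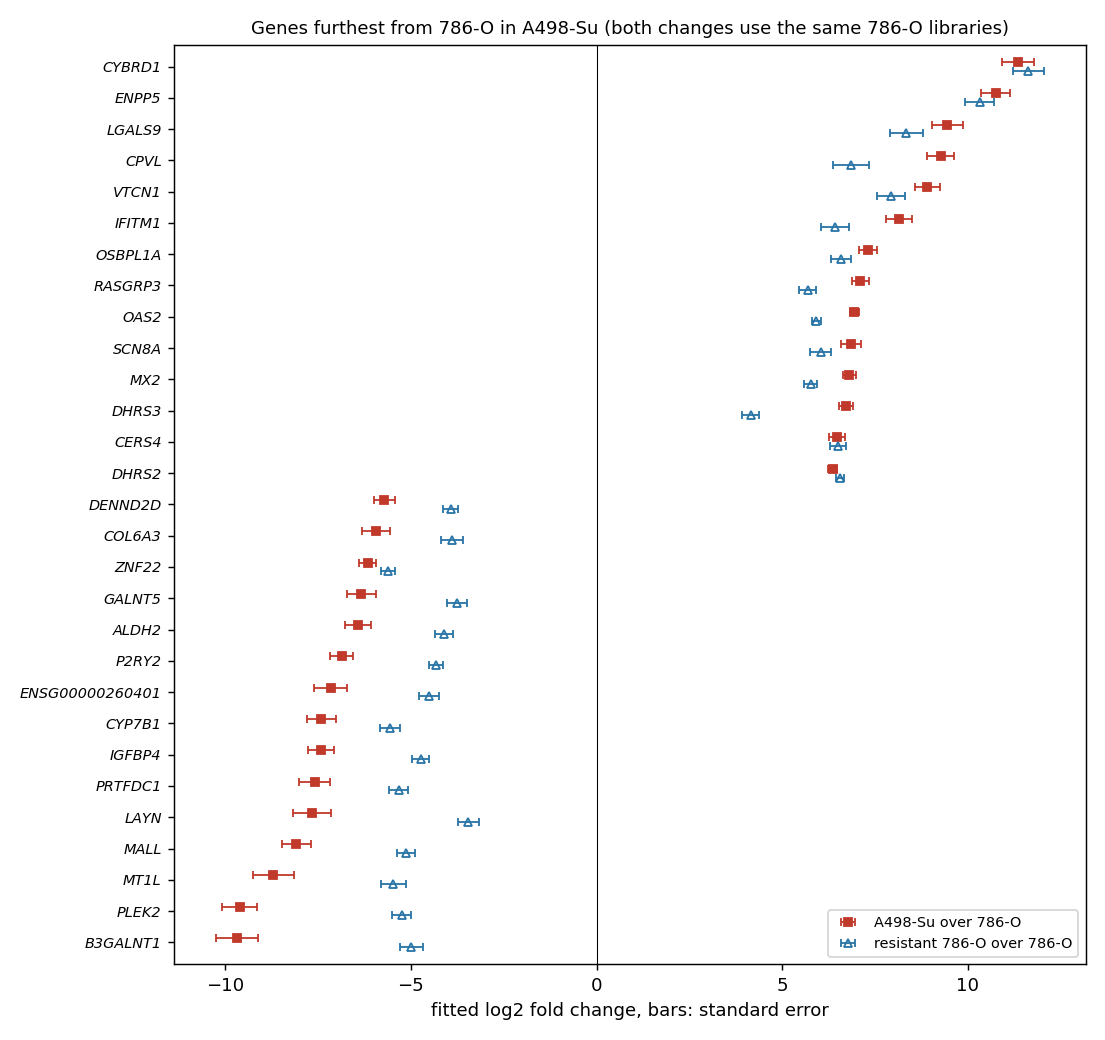
Fitted log2 fold change over 786-O, with standard errors, of 14 of the 15 genes furthest above and the 15 furthest below 786-O in A498-Su, beside the same genes in resistant 786-O. Both changes use the same 786-O libraries. For genes with 0 to 3 counts in a group the fitted value depends on the prior count and is no bound. For CYBRD1 the fitted values are 11.35 and 11.63, and for B3GALNT1 they are -9.69 and -4.99.

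Resistant 786-O, the line selected from 786-O, was placed beside A498-Su to show where A498-Su differed from a second sunitinib-selected line. Comparisons of either with 786-O share the 786-O libraries, so the test was made between A498-Su and resistant 786-O. At an adjusted p under 0.05, 9180 of 19929 genes (46.1%) differed by the same edgeR test, 4593 higher and 4587 lower in A498-Su (23.0% each). Beyond 2-fold, 579 (2.91%) were higher and 876 (4.4%) lower, which makes 7.3%, and libraries did not overlap for 51.7% of genes. The second resistant 786-O library, which stood apart, weighed on this count, which was 10790 without it. Differences also followed GC content, from a median of 0.245 in the fifth of genes with least GC to -0.287 in the fifth with most, a gradient that was absent against 786-O (-0.059 and 0.004). With the trend in GC content and length removed, 8106 genes were called, 3784 higher and 4322 lower.

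Some genes far above 786-O in A498-Su did not pass the test against resistant 786-O. CYBRD1 stood at 11.4 ± 1.70 CPM in resistant 786-O (mean ± SD, n = 3) against 9.41 ± 0.232 CPM in A498-Su and IFI6 at 675 ± 218 CPM against 724 ± 23.0 CPM. The log2 differences were -0.28 ± 0.14 (SE, edgeR adjusted p = 0.13) and 0.10 ± 0.14 (SE, edgeR adjusted p = 0.59), and for IFI6 the resistant 786-O libraries spread over 531, 925 and 568 CPM. The interferon list was nevertheless mostly higher in A498-Su than in resistant 786-O, with 32 of 47 genes higher and 4 lower at a median of 0.44, for example OAS2 (1.03 ± 0.09 (SE, edgeR adjusted p = 4.8e-07)) and IFITM1 (1.72 ± 0.20 (SE, edgeR adjusted p = 8.6e-06)). Sterol genes were higher in 23 of 34 cases and lower in 3. STARD4, which moves cholesterol between membranes, was at 102, 102 and 105 CPM in A498-Su, 47.1, 44.7 and 40.0 CPM in resistant 786-O and 40.1, 42.7 and 43.4 CPM in 786-O, higher than resistant 786-O by 1.23 ± 0.06 (SE, edgeR adjusted p = 8e-09). INSIG1 was at 441, 457 and 451 CPM in A498-Su and 188, 206 and 181 CPM in resistant 786-O, apart by 1.23 ± 0.05 (SE, edgeR adjusted p = 3.3e-09). For these 2 genes A498-Su was above 786-O, while resistant 786-O was 0.06 (STARD4, not past the threshold) and -0.67 (INSIG1) from it.

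Cytokine genes showed the reverse. Of 29 tested, 14 were lower in A498-Su than in resistant 786-O and 3 higher. CXCL8 was at 5.67, 5.55 and 4.07 CPM in A498-Su and 52.4, 41.97 and 45.3 CPM in resistant 786-O, where it was near its 786-O level, and the difference was -3.20 ± 0.11 (SE, edgeR adjusted p = 3e-10). CSF2 was at 1.23, 0.909 and 0.782 CPM in A498-Su and 8.74, 17.8 and 8.29 CPM in resistant 786-O, with a difference of -3.55 ± 0.33 (SE, edgeR adjusted p = 9.6e-07). IL6 was at 14.02, 14.9 and 11.9 CPM and 55.5, 47.2 and 53.9 CPM, with a difference of -1.94 ± 0.09 (SE, edgeR adjusted p = 4.7e-09). For all 3 genes every A498-Su library was below every resistant 786-O library, also with the second one set aside. Matrix genes were lower in 28 of 60 cases and higher in 2, among them LAMB3, a laminin chain, at 63.9, 56.9 and 59.7 CPM in A498-Su and 145, 372 and 158 CPM in resistant 786-O (-1.90 ± 0.26 (SE, edgeR adjusted p = 3.1e-05)). ANGPTL4 and DCDC2C, among the 5 furthest below resistant 786-O, rested in part on that library: ANGPTL4 was at 4.73, 4.07 and 4.93 CPM in A498-Su and 13.3, 72.4 and 13.9 CPM in resistant 786-O, and without the second library their log2 differences went from -2.85 to -1.56 and from -2.63 to -1.87. RPL35P2, the pseudogene of a ribosomal protein gene and so a probable recipient of shared reads, had a log2 difference of -3.68 ± 0.20 (SE, edgeR adjusted p = 9.5e-09), where processed pseudogenes as a class had a median of -0.229.

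The 5 genes furthest above resistant 786-O were CLDN16, PDGFRB, CLDN2, KCNJ16 and UGT2A3. CLDN16 (ENSG00000113946.3, chr3:190322541-190412138), a tight junction protein for magnesium and calcium, was at 11.8, 10.3 and 9.82 CPM in A498-Su, 0.776, 0.366 and 0.984 CPM in resistant 786-O and 0.158, 0.336 and 0.177 CPM in 786-O. CLDN2, which forms cation pores in the proximal tubule, was at 41.2, 39.4 and 40.1 CPM, 3.55, 1.53 and 4.20 CPM and 2.29, 2.17 and 2.82 CPM in the same order. PDGFRB was at 0.531, 0.115 and 0.547 CPM in resistant 786-O, beside the A498-Su values above. All 3 genes were high in A498-Su alone of these 3 groups, and in A498 they stood at 0.317 ± 0.1248 CPM, 3.10 ± 0.318 CPM and 0.241 ± 0.0881 CPM (n = 3). Against resistant 786-O the log2 differences were 3.90 ± 0.23 (SE, edgeR adjusted p = 1.9e-08), 3.69 ± 0.21 (SE, edgeR adjusted p = 1.3e-08) and 3.76 ± 0.30 (SE, edgeR adjusted p = 2.5e-07). UGT2A3, a glucuronosyltransferase, was higher by 3.16 ± 0.23 (SE, edgeR adjusted p = 1.2e-07). KCNJ16, a potassium channel of the tubule, had another pattern: it was at 6.49, 5.503 and 6.77 CPM in A498-Su and 5.47, 5.84 and 6.57 CPM in 786-O, which overlapped, and at 0.572, 0.618 and 0.744 CPM in resistant 786-O, a difference of 3.28 ± 0.16 (SE, edgeR adjusted p = 5.8e-09).

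**Figure D5:**
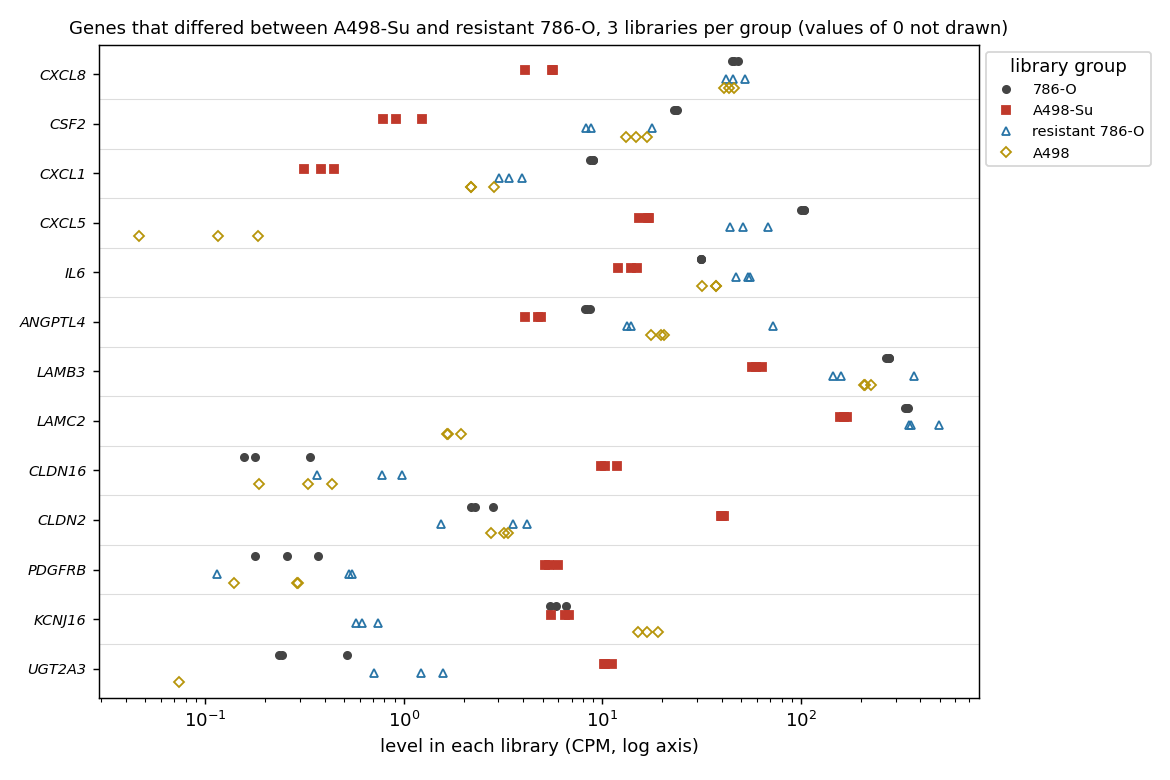
CPM in every library, on a log axis, of genes described in the comparison with resistant 786-O, with a symbol and colour for each of the 4 groups and values of 0 left out. CXCL8, CSF2 and CXCL1 lie lowest in A498-Su, CLDN16, CLDN2 and PDGFRB highest, and the second resistant 786-O library stands out for ANGPTL4 at 72.4 CPM.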

How the data were processed

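mRNA of 12 libraries from 4 cell line groups was sequenced from a stranded kit as paired ends, and the authors deposited 1 table of raw read counts per gene (unit: counts, not normalized), with replicates kept apart. According to the study's methods and the submitters' processing notes, bcl2fastq 2.19.0, Trimmomatic 0.36.6, HISAT2 2.1.0 and featureCounts 1.6.3 were used against GRCh38 with GENCODE gene models. Counting was by exon with strand setting 1, where the opposite setting is usual for this kit, and left out ambiguous reads. Genes that overlap another gene, and near-identical copies, may be undercounted. IRF9, GLUL, ASNS, NDUFA7 and NDUFA13 were under 2 CPM in all 6 libraries compared, and their values, with that of ALDOA, are uncertain. The table has 45478 genes, 37667 with a count.

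The columns were matched to samples by name, and groups came from the labels. Genes were kept by edgeR's filterByExpr (19929), normalized by TMM and tested with edgeR 4.0.16 (R 4.3.3), a quasi-likelihood fit with 4 group means over all 12 libraries, so that groups shared 1 estimate of the spread. The fit held for all contrasts, p-values were adjusted by Benjamini-Hochberg over all genes tested, and the threshold was 0.05. SE is the log2 fold change (prior count 0.125) divided by the square root of F. CPM uses the TMM library size, and ± marks the SD over 3 libraries. When 1 group had 0 counts, a floor of 3 counts over the group gave a bound, and with 1 to 3 counts an exact 95% Poisson interval of the ratio was given, which covers counting error only. On data simulated for A498-Su against 786-O, 196 of 200 genes changed by 2-fold were recovered among 17598 genes, with 9 false calls. Only 200 genes were changed there, whereas 12683 of 19929 were called in the libraries compared. Recovery with so large a share of genes changed was not tested. DESeq2 1.42.0 served as an alternative. Gene positions and promoters came from GENCODE 44 and RefSeq on the same assembly, and tables and figures were made with Python 3.11.15, pandas 2.3.3 and matplotlib 3.10.9.

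The study's own set (AXL, CD274, STAT3, MAPK3, AKT1, HSPB1, PRKAA1, PRKAA2, LDHA and SLC1A5) was named whatever its values, and some genes that these rules select are not reported here. Otherwise the genes named were the 15 furthest above and 15 furthest below 786-O by log2 fold change, among those past the threshold with at least 5 CPM in the higher group and no overlap between libraries, 4 per gene list by the same limits on p and CPM together with members whose role the text needed, and the 5 furthest each way from resistant 786-O. A gene of a list named outside those limits, such as one under 5 CPM, was named after its values were seen. The comparison, its members and the 23 lists were chosen with earlier results of these data known. Alternatives were other scalings, filters, tools, a replicate block, thinning, and correction for GC content and length. An unadjusted two-sample test of raw counts and leaving out each library were further ones. No set test was run.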

Additional observations from a re-analysis of the deposited data

Results flagged for a closer look

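The results below compare the difference of A498-Su from 786-O with that of resistant 786-O from 786-O by the direct test of A498-Su against resistant 786-O (the quasi-likelihood test of edgeR, adjusted by Benjamini-Hochberg). In all, 9180 genes differed. The log2 differences of the 5 genes furthest above were 3.90 for CLDN16, 3.76 for PDGFRB, 3.69 for CLDN2, 3.28 for KCNJ16 and 3.16 for UGT2A3. Those of the 5 furthest below were -3.68 for RPL35P2, -3.55 for CSF2, -3.20 for CXCL8, -2.85 for ANGPTL4 and -2.63 for DCDC2C. All 10 were still called with the second resistant 786-O library left out, at 3.60, 3.35, 3.38, 3.26 and 2.90 for the genes above and -3.61, -3.11, -3.27, -1.56 and -1.87 for those below, in the same order. DCDC2C had resistant 786-O libraries of 3.12, 9.64 and 3.08 CPM beside 0.746, 0.814 and 0.978 CPM in A498-Su, so its size, like that of ANGPTL4, came in part from that library.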

How the results depend on the processing

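Against 786-O the count of genes called stayed between 10758 (at least 10 counts in every library compared) and 13520 (only the 6 libraries compared) under other scalings, filters and tools, thinning and removal of the GC and length trend, around the 12683 reported. Leaving out single libraries gave 11650 to 11839, and for the test against resistant 786-O 7591 to 10790. Requiring more than 2-fold as well left 3983 genes against 786-O and 1455 against resistant 786-O. The study names a two-sample test of gene counts for genes of interest and does not state whether the counts were normalized. Such a test was run here on raw counts of all genes tested, without adjustment. It called 1654 higher and 11575 lower against 786-O, and 140 and 13283 against resistant 786-O. Used in this way it does not correct for the smaller A498-Su libraries. Replicate numbers showed no clear pairing of the samples. Same-numbered libraries of A498-Su and 786-O correlated at 0.0697, 0.0432 and 0.0222 in their deviations from the group means. Those of A498-Su and resistant 786-O correlated at -0.06345, -0.02507 and 0.2008, beside -0.2065 to 0.1594 for differently numbered ones. With the replicate number as a block 12567 genes were called against 786-O (6213 higher, 6354 lower) and 8974 against resistant 786-O.

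Of 144 results on single genes, 136 kept their direction and call in every alternative. The direction of AKT1, which had not passed, turned under DESeq2 size factors (0.0148), library size alone (0.1314), at least 10 counts (0.0175), the 6 libraries compared (0.0177), the DESeq2 Wald test (0.0113) and without the first or the second A498-Su library (0.0018 and 0.0202), with a range of -0.0293 to 0.0202 over the libraries left out. It became called in both directions, higher with library size alone (edgeR adjusted p = 0.023) and lower with the trend in GC content and length removed (-0.3107, edgeR adjusted p = 4.5e-06). Of the medians of gene lists under the alternatives, 280 stayed within the spread between replicates, 77 moved further and 11 turned, all of these near 0. That of oxidative phosphorylation became 0.0251 with library size alone and that of matrix genes -0.0761 with the GC trend removed. For epithelial and mesenchymal genes it became 0.0942 with library size alone, 0.0372 with the GC trend removed, and 0.0534 and 0.0413 without the second or the third A498-Su library (-0.0725 to 0.0534 over the libraries left out). For NRF2 genes it became -0.0002 without a filter, -0.0348 with the GC trend removed, -0.0071 without the third A498-Su library, and -0.0247 and -0.0410 without the first or the third 786-O library (-0.0410 to 0.0519 over the libraries left out). These causes were not tested. Depth limits the values of genes under about 1 CPM, where a library of A498-Su holds few counts.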

Other observations

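Differences from 786-O varied with chromosome. The median log2 fold change of A498-Su over 786-O was -0.351 over 285 genes of chromosome 22, -0.313 over 649 genes of chromosome 12, -0.239 over 564 genes of chromosome 16, -0.225 over 107 genes of chromosome 21 and 0.269 over 394 genes of chromosome 15, while the other autosomes and chromosome X lay between -0.174 and 0.112. The same medians for resistant 786-O, measured against the same 786-O libraries, were -0.249, -0.371, -0.021, -0.289 and 0.198. Between A498-Su and resistant 786-O the median was -0.175 for chromosome 16.

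Classes of transcript also differed. Of 812 processed pseudogenes tested, 302 were lower and 76 higher against 786-O (median -0.384), beside the lower share of ribosomal protein counts given above. Of 4151 long noncoding RNA genes, 1197 were higher and 886 lower, with a median of 0.094.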
